A study of Mus musculus with 4 samples.

Results

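Bone morphogenetic proteins (BMPs) signal through receptor kinases such as Bmpr1a, which phosphorylate the receptor-regulated Smads Smad1 and Smad5. These bind the common partner Smad4 and act on target genes in the nucleus, where the co-repressors Ski and Skil (SnoN) hold Smad transcription in check, while the inhibitory Smads Smad6 and Smad7 act against the receptors and Smads. The RING ubiquitin ligase Rnf111 (Arkadia) marks Smad7, Ski and Skil for degradation, and its close relative Rnf165 (Arkadia-like), an enzyme of the nervous system, strengthens BMP signalling in neurons. In the developing cortex, BMP signalling is known for patterning the dorsal midline and for timing the differentiation of neural progenitors.

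These 10 genes, of 23038 genes quantified, and their 25 alternative splicing events, of 38240 events, were examined in cortical mRNA of 2 control and 2 *Qk* cKO mouse embryos at E14.5. Control embryos (labelled wild type) carried *Qk* fl/fl without Cre, and *Qk* cKO embryos carried the same floxed alleles with a Nestin-Cre transgene, so that all 4 embryos shared the floxed *Qk* gene. *Qk* encodes the RNA-binding splicing factors Qki5, Qki6 and Qki7, and the loxP sites flank its exon 2. Cre from the Nestin promoter acts in neural progenitors and their progeny, while vascular, meningeal and blood cells of the cortex keep *Qk*. The genes were chosen by the lower level of *Rnf165* in *Qk* cKO in these same libraries, with the other 9 added as its relative and as components of the pathway in which both enzymes act. The level contrast of *Rnf165* is therefore given as a description, without a test.

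The libraries held between 37942046 and 42994832 tags, the fragments assigned to genes. Tags joining *Qk* exon 2 to exon 3 numbered 635 and 565 in control and 63 and 68 in *Qk* cKO, against 574, 439, 898 and 830 tags joining exons 3 and 4, which fits the labels. Of 18834 genes tested with edgeR's quasi-likelihood test, 0.584% were called changed (thresholds of 0.01 for p and 0.1 for FDR), comprising 0.207% higher and 0.377% lower in *Qk* cKO. Markers of the cortex were present in all libraries, and no marker of the 12 cell type lists was at 0 in every library. Summed RPKM of 9 diencephalic and hypothalamic markers, led by *Tcf7l2*, was 11.0 and 26.6 in control and 9.26 and 3.23 in *Qk* cKO, and 6 of the 9 were called lower. That list was chosen with earlier results known and holds genes that the paper had listed as changed in these libraries. The 6 calls are therefore a description and not separate evidence. Summed RPKM of 10 radial glia markers, led by *Fabp7*, was 1700 and 1580 in control and 1391 and 1331 in *Qk* cKO, and 2 were called lower. The sum follows its most abundant genes, and the median log2 fold change of the 10 markers was −0.09. None of 12 cortical neuron markers was called in either direction, with sums of 1437, 1471, 1432 and 1375. In each of the intermediate progenitor, subpallial, dorsal forebrain, cortical hem and choroid plexus, vascular, meningeal and oligodendrocyte precursor lists, 0 markers were called by the same test. Of the erythroid markers 1 of 7 was called higher, and of the microglia and macrophage markers 1 of 7 was called lower. The radial glia and microglia lists also hold genes from the paper's list of changed transcripts.

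*Rnf165* (chr18:77456110-77565161, minus strand, mm10) was the gene with the largest difference among the 10. Its RPKM (the gene's tags divided by the library's tags, as CPM, and by exon length in kilobases) was 14.9 and 15.8 in the control libraries and 10.5 and 10.4 in *Qk* cKO. The groups did not overlap, and the *Qk* cKO mean of 10.5 ± 0.06 (SD, n = 2) was 68.3% of the control mean of 15.3 ± 0.58 (SD, n = 2). The log2 fold change was −0.54 with a standard error of 0.06, and it lay between −0.57 and −0.50 when any 1 library was left out. Without the control library that carried the most diencephalic marker RNA (WT replicate 2) it was −0.50. Leaving that library out did not even out the diencephalic markers. Their median log2 fold change was −3.32 with all libraries and −1.83 without it. The part that these markers and the radial glia markers have in the lower *Rnf165* level was not tested. In whole cortex, fewer cells of a type cannot be told apart from less RNA per cell.

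*Rnf111* (chr9:70425424-70503725, minus strand) is the closest relative of *Rnf165* among these genes and the broadly expressed ligase of the pair. It measured 8.98 and 8.77 RPKM in control and 8.29 and 8.0 RPKM in *Qk* cKO. Both *Qk* cKO values were below both control values, but the difference did not pass the test (log2 fold change −0.11, SE 0.07, FDR 0.731), and the 95% interval ran from −0.26 to 0.04 on the log2 scale. With 2 libraries per group, unchanged genes can also have groups that are apart. How often this occurred over all genes was not counted, here or for the genes below. The ratio of *Rnf165* to *Rnf111* RPKM was 1.66 and 1.80 in control and 1.27 and 1.31 in *Qk* cKO. By RPKM, *Rnf165* thus lay above *Rnf111* in both control and both *Qk* cKO libraries. The RPKM of *Rnf111* was computed on a gene model of 8400 nt, whereas its longest annotated coding transcript has 4961 nt. For *Rnf165* these lengths are 7619 and 7300 nt, so the order, at least in *Qk* cKO, depends on the length used.

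**Figure D1:**
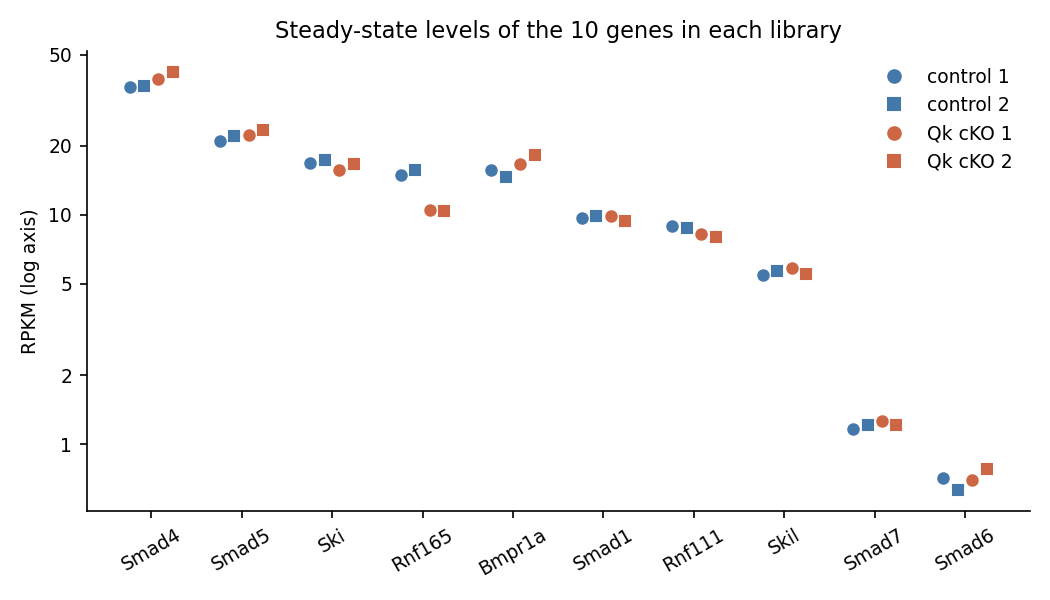
Level of each of the 10 genes in RPKM on a log axis, ordered by the control mean. Each point is 1 library, blue for control and red for *Qk* cKO, with circles for replicate 1 and squares for replicate 2, and *Rnf165* lies at 14.9 and 15.8 in control and at 10.5 and 10.4 in *Qk* cKO, a wider gap than for any of the other 9 genes.

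*Bmpr1a* (chr14:34410734-34503341, minus strand), the type I receptor, measured 15.7 and 14.6 RPKM in control and 16.6 and 18.3 RPKM in *Qk* cKO. Both *Qk* cKO libraries lay above both controls. The log2 fold change was 0.22 (SE 0.07), with an unadjusted p of 0.00387 and an FDR of 0.247 in edgeR's quasi-likelihood test, so it was not called. In control, *Bmpr1a* and *Rnf165* had overlapping levels, whereas in *Qk* cKO both *Bmpr1a* values were above both *Rnf165* values.

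*Smad4* (chr18:73639009-73703780, minus strand), the common Smad, was the most abundant of the 10 genes. Its RPKM was 36.2 and 36.4 in control and 39.1 and 42.1 in *Qk* cKO. The groups did not overlap, with a log2 fold change of 0.17 (SE 0.05), an unadjusted p of 0.00413 and an FDR of 0.249 in the same test. *Smad4* and *Bmpr1a* were the 2 of the other 9 genes with an unadjusted p under 0.05, a level that 8.76% of all tested genes reached. The *Smad4* to *Rnf165* ratio was 2.42 and 2.31 in control and 3.71 and 4.04 in *Qk* cKO.

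Of the receptor-regulated Smads, *Smad5* (chr13:56703010-56742377, plus strand) was the more abundant. It measured 21.04 and 22.1 RPKM in control and 22.4 and 23.4 RPKM in *Qk* cKO, groups that did not overlap, with a log2 fold change of 0.10 that did not pass the test (SE 0.05, FDR 0.636). *Smad1* (chr8:79338395-79399518, minus strand) measured 9.70, 9.88, 9.90 and 9.45 RPKM in the same order of libraries. The *Smad1* groups overlapped, and the 95% interval of the log2 fold change ran from −0.19 to 0.18. Smad5 mRNA exceeded Smad1 mRNA per length in every library, by a ratio between 2.17 and 2.48.

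The inhibitory Smads were the least abundant of the 10 genes. *Smad7* (chr18:75367529-75395935, plus strand), which also restrains the TGF-beta arm, measured 1.16 and 1.22 RPKM in control and 1.26 and 1.22 RPKM in *Qk* cKO. *Smad6* (chr9:63953076-64022059, minus strand), which acts mainly against BMP signals, measured 0.715 and 0.630 RPKM in control and 0.697 and 0.779 RPKM in *Qk* cKO, from 71 to 95 tags a library. The differences were 0.07 (SE 0.16) and 0.14 (SE 0.25) on the log2 scale. The 95% interval for *Smad6* reached from −0.38 to 0.67, so that changes within this range were not excluded.

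The co-repressor *Ski* (chr4:155154075-155222592, minus strand) measured 16.9 and 17.4 RPKM in control and 15.7 and 16.6 RPKM in *Qk* cKO. Its relative *Skil* (chr3:31095058-31122577, plus strand) measured 5.45 and 5.67 RPKM in control and 5.84 and 5.54 RPKM in *Qk* cKO. Both proteins are degraded through Rnf111, which mRNA levels do not measure. Neither mRNA passed the test, with log2 fold changes of −0.07 (SE 0.06) and 0.05 (SE 0.08) and an FDR of 0.826 and 0.913. The *Skil* groups overlapped and the *Ski* groups did not.

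Across the 9 genes other than *Rnf165*, 0 were called by edgeR's quasi-likelihood test, 2 had an unadjusted p under 0.05, and edgeR's exact test and DESeq2 also called 0. Their log2 fold changes ran from −0.11 to 0.22 with a median of 0.07, beside a median of −0.0025 over all tested genes. In the order of control mean RPKM, *Smad4* was followed by *Smad5*, *Ski*, *Rnf165* and *Bmpr1a*, then *Smad1*, *Rnf111*, *Skil*, *Smad7* and *Smad6*. This order rests on the gene model lengths used for the RPKM. Neighbours in this order were separate in the 2 control libraries except *Rnf165* and *Bmpr1a*. In *Qk* cKO, *Rnf165* lay below *Bmpr1a* and *Ski* and next to *Smad1*, whose values of 9.90 and 9.45 RPKM it still exceeded in both libraries.

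**Figure D2:**
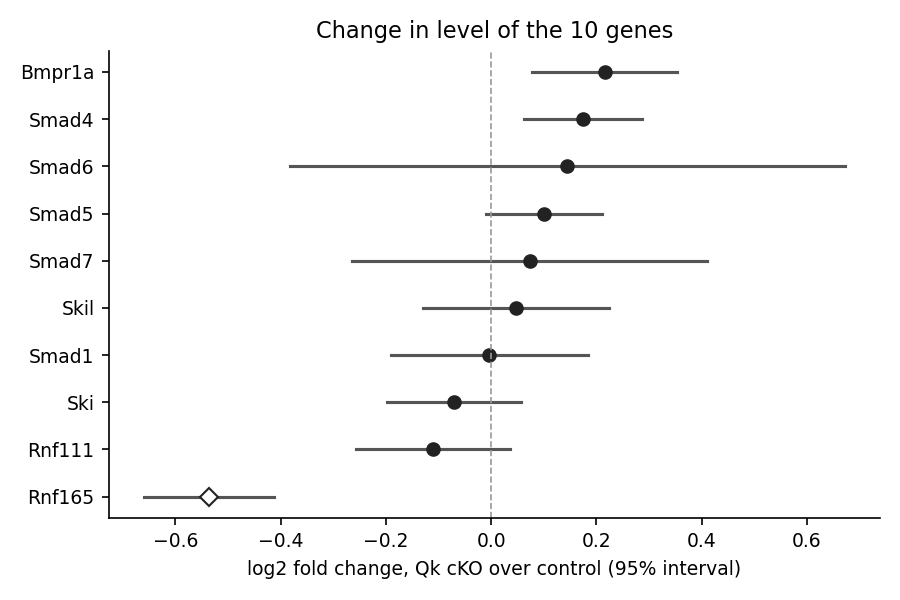
Log2 fold change of each gene, *Qk* cKO over control, with its 95% interval from edgeR's quasi-likelihood fit, from 2 libraries per group. The open diamond marks *Rnf165* at −0.54, whose contrast chose the genes. Its interval is drawn as a description, and its distance from 0 is not a test. The intervals are not adjusted for the number of genes, so that those of *Smad4* and *Bmpr1a* lie above 0 although neither passed the FDR threshold.

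The splicing files hold a pair of *Rnf165* events, and their tags differed in opposite directions. The full-length coding transcript has 8 exons, and an annotated short non-coding transcript joins exon 1 to a terminal exon inside intron 1 (chr18:77562144-77563450). A further annotated non-coding transcript is a single exon that covers the same stretch (chr18:77562093-77564609). A retained-intron event (chr18:77563132-77563450) lies within both, around an intron of 125 nt that no tag in any library removed. The gene model used for the RPKM is 7619 nt long, which is 319 nt more than the full-length transcript, and 319 nt is also the length of this event, so its tags appear to be part of the gene's level.

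Unspliced tags at the 5′ site of this intron numbered 27 and 28 in control and 55 and 46 in *Qk* cKO. At the 3′ site they numbered 27 and 32 in control and 59 and 52 in *Qk* cKO. Both *Qk* cKO libraries were above both controls at each site, and a fragment can cover both sites, so that the 2 counts are not independent. Scaled to library size, the 5′ site measured 0.652 and 0.738 CPM in control and 1.28 and 1.12 in *Qk* cKO, 1.73 times the control mean. With the tags of both sites added up, the log2 change was 0.80. On that measure, among 1360 retained-intron events with at least 100 retained tags, 31 had as large an increase in CPM, this one included, and the median log2 change was 0.07.

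The second event is exon 5 of the full-length transcript (chr18:77466935-77467039), a coding exon of 105 nt. It was included in essentially all tags, and the tags within it numbered 263 and 242 in control and 197 and 167 in *Qk* cKO. Scaled to library size these were 6.35 and 6.38 CPM in control and 4.58 and 4.07 in *Qk* cKO, so the coding exon was lower in both *Qk* cKO libraries. As a share of all *Rnf165* tags, exon 5 took 5.58% and 5.31% in control and 5.71% and 5.11% in *Qk* cKO, groups that overlapped. The unspliced tags at the 5′ site in intron 1 took 0.573% and 0.615% in control and 1.60% and 1.41% in *Qk* cKO, a log2 change of 1.34. With the tags of both sites added up, 2 of the 1360 retained-intron events had as large a change in share, this one included. Tags of the coding part and of the intron 1 region therefore went in opposite directions within *Rnf165*. Neither event had enough tags on both isoforms for the splicing test, the lower gene level that chose *Rnf165* is the denominator of these shares, and the event was picked after its values were seen, so these values are a description.

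**Figure D3:**
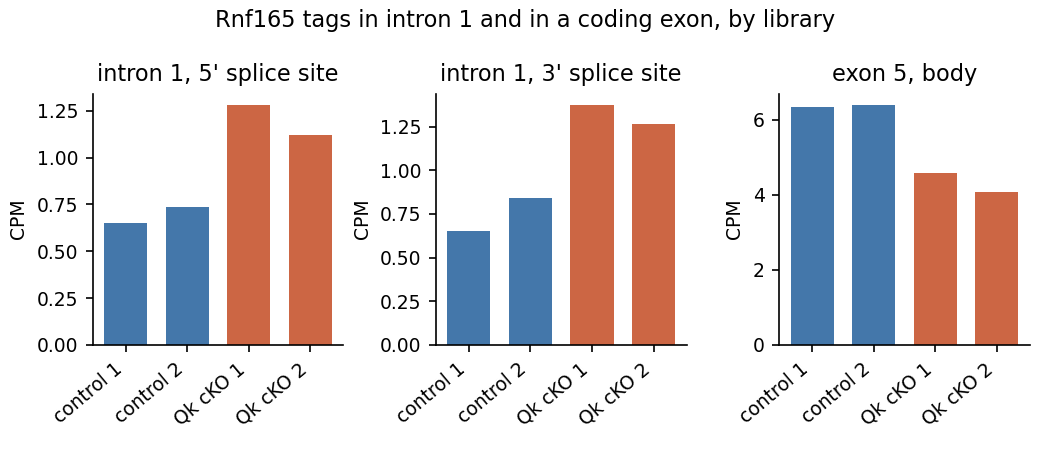
*Rnf165* tags scaled to library size (CPM) at the unspliced 5′ and 3′ sites of the intron 1 event and in the body of exon 5, for each library, with blue bars for control and red bars for *Qk* cKO and each axis starting at 0. Both intron 1 sites are higher in the *Qk* cKO libraries, 1.28 and 1.12 against 0.652 and 0.738 at the 5′ site, while exon 5 is lower.

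Of the 25 splicing events of the 10 genes, 7 reached the coverage minimum of 20 tags and were tested. *Smad1* and *Bmpr1a* had no annotated event, and *Rnf165*, *Smad5*, *Smad6* and *Smad7* had none that could be tested. With Fisher's exact test on summed isoform tags, 0 of the 7 passed the same thresholds, compared with 7.50% of all 11500 tested events. None of the 7 had an unadjusted p under 0.05, a level that 16.8% of all tested events reached, and 2 of the 7, both in *Smad4*, reached it without WT replicate 2 or without QkcKO replicate 2. The edgeR interaction test, which asks whether the isoform ratio depends on genotype given the spread between replicates, called 0.557% of all events and also called 0 of the 7 and also gave none with an unadjusted p under 0.05. The events are described because they show which isoforms of these regulators the E14.5 cortex made. Inclusion is the share of junction tags that support the longer form, whose tags are first averaged over its junctions (both junctions of a cassette exon, both splice sites of a retained intron), and Δ*I* is control minus *Qk* cKO.

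The coding stretches that are spliced in or out of *Ski*, *Skil* and *Rnf111* are shown here because they are the parts by which the cortical isoforms differ. They were read from GENCODE M21 transcripts on mm10, 5′ to 3′ on the RNA strand. Capitals mark the alternative stretch and lower case the 30 nt on each side in the mRNA.
Ski exon 2: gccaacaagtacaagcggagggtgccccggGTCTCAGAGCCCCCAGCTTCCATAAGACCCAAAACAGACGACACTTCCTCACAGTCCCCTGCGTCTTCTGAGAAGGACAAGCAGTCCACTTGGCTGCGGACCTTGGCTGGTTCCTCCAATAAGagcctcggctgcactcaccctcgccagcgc
Skil exon 4 extension: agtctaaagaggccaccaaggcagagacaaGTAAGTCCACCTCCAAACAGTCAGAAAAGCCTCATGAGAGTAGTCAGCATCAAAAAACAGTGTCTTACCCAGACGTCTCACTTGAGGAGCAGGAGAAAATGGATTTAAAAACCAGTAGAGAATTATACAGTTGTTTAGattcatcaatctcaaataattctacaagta
Rnf111 exon 8 start: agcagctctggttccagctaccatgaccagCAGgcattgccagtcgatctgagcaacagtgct
Rnf111 exon 14 start: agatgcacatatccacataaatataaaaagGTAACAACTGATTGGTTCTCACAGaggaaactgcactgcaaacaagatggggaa

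The *Ski* exon (chr4:155160834-155160956) is 123 nt long, which is 41 codons and keeps the reading frame. Its inclusion was 0.757 and 0.674 in control and 0.716 and 0.712 in *Qk* cKO. The *Qk* cKO values lay between the control values, and Δ*I* was −0.00029 (Fisher's exact test gave p = 0.578). Skipping of this exon was a regular feature of all 4 libraries.

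The *Skil* stretch (chr3:31113503-31113640) is 138 nt at the end of exon 4, or 46 codons, and it distinguishes the long SnoN protein from its shorter form. The stretch opens with the letters GTAAGT, the sequence of a typical 5′ splice site, and the shorter form is spliced just before them. Inclusion of the long form was 0.226 and 0.273 in control and 0.435 and 0.214 in *Qk* cKO, so the shorter form predominated in every library. The *Qk* cKO libraries lay on either side of the controls, and Δ*I* was −0.086 (Fisher's exact test gave p = 0.302 and FDR 0.750).

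*Rnf111* had 3 tested events. Its exon 2 (chr9:70502940-70503002), 63 nt upstream of the coding sequence, was the 1 event of the 7 with a Δ*I* of at least 0.1 in size. Inclusion was 0.510 and 0.509 in control and 0.771 and 0.579 in *Qk* cKO. Both *Qk* cKO libraries were above both controls, but only 38 tags supported the exon-skipping form over all libraries, and Δ*I* of −0.162 did not pass (Fisher's exact test gave p = 0.176 and FDR 0.516). It ranged from −0.26 to −0.07 when any 1 library was left out, the smallest being without QkcKO replicate 1.

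The other *Rnf111* events are alternative acceptors in the coding sequence. The 3-nt choice at exon 8 (chr9:70450539-70450541) adds a single codon, and the longer form had an inclusion of 0.632 and 0.519 in control and 0.619 and 0.686 in *Qk* cKO. The 24-nt choice at exon 14 (chr9:70429656-70429679) adds 8 codons, and the longer form had an inclusion of 0.255 and 0.337 in control and 0.347 and 0.310 in *Qk* cKO. The groups overlapped in both events, with Δ*I* of −0.065 and −0.037 (p of 0.519 and 0.345 in Fisher's exact test). Both acceptors were used in every library, so the cortex contained *Rnf111* mRNAs of several coding forms.

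*Smad4* had the remaining 2 tested events, and these share an exon and the same skipping junction. The event of exon 6 of the coding transcript (chr18:73658779-73658898, 120 nt) gave 0.910 and 0.846 in control and 0.804 and 0.872 in *Qk* cKO, groups that overlapped. These values understate the inclusion of exon 6. They average in a junction from exon 6 past the next exon, which had 7 and 5 tags in control and 4 and 1.8 in *Qk* cKO. Δ*I* was 0.043 (Fisher's exact test gave p = 0.103 and FDR 0.405). The tandem event that adds the next exon gave 0.947, 0.917, 0.890 and 0.931 in the same order of libraries. Most *Smad4* mRNA carried these exons in all 4 libraries.

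**Figure D4:**
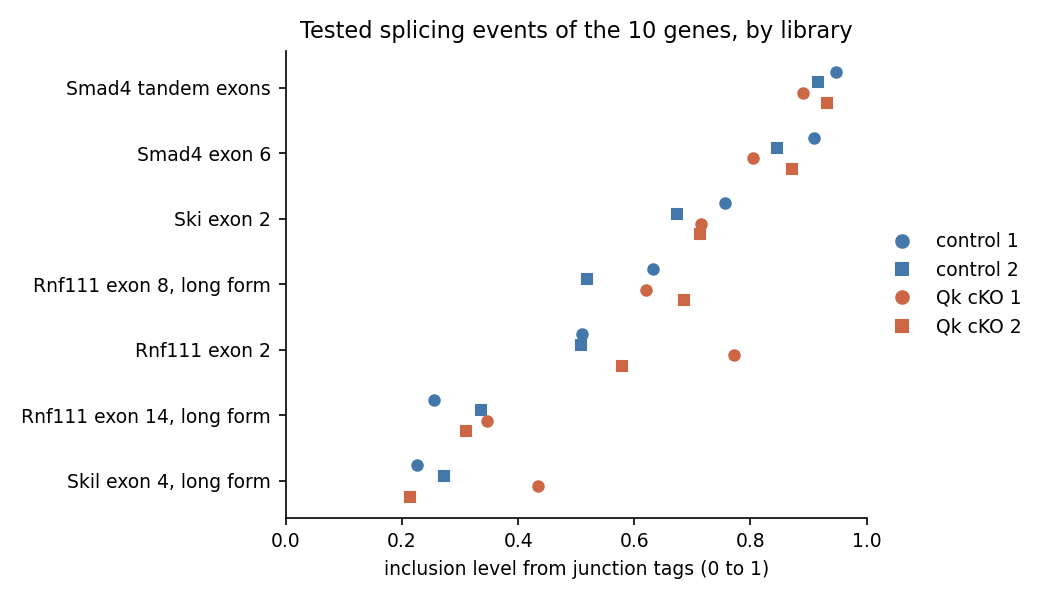
Inclusion level, from 0 to 1, of the 7 tested events in each library, with blue for control, red for *Qk* cKO, circles for replicate 1 and squares for replicate 2. Groups are apart only for *Rnf111* exon 2 (0.510 and 0.509 against 0.771 and 0.579), and they overlap in the other 6 events. That event did not pass Fisher's exact test (p = 0.176), and how often groups are apart over all tested events was not counted.

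The wider pathway was followed in 8 lists, from ligands to targets. Leaving out the 10 genes, the lists held 128 genes, of which 127 were tested. Of these, 0 were called by edgeR's quasi-likelihood test, 0 by edgeR's exact test and 0 by DESeq2, and 12 had an unadjusted p under 0.05. Over all tested genes, the quasi-likelihood test called 0.584%, and 8.76% had an unadjusted p under 0.05. The same shares are the background for each list below. Of the 96 genes with a mean RPKM of at least 1, 51 had a log2 fold change above 0 and 45 below, with a median of 0.01. The counts by list that follow include those of the 10 genes that a list holds, other than *Rnf165*.

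Among 17 tested ligands, 8 reached a mean RPKM of 1, and the most abundant were *Gdf1* (8.57, 10.1, 7.82 and 8.56 RPKM, controls first) and *Bmp7* (8.62, 7.49, 6.89 and 9.49 RPKM). None of the ligands had an unadjusted p under 0.05, the smallest being that of *Gdf10*, a BMP3-related factor (2.16 and 1.84 RPKM against 1.27 and 1.75 RPKM, FDR 0.579), followed by *Bmp5* (1.71 and 1.87 RPKM against 1.10 and 1.74 RPKM). Of 12 receptors and co-receptors, the most abundant were *Neo1*, a receptor for the RGM co-receptors (49.4, 50.5, 49.9 and 51.9 RPKM), and the type II receptor *Bmpr2* (20.8, 22.8, 21.2 and 22.4 RPKM). After *Bmpr1a* the smallest p belonged to the co-receptor *Rgma*, with 15.5 and 18.5 RPKM in control and 14.7 and 14.6 RPKM in *Qk* cKO (log2 fold change −0.20, SE 0.09, FDR 0.477). None of the 12 was called.

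Among extracellular regulators, 12 of the 14 genes with a mean RPKM of at least 1 had a log2 fold change below 0, with a median of −0.08, but 0 of the 25 tested were called by edgeR, and 2 had an unadjusted p under 0.05. *Bmper*, a secreted BMP-binding modulator, measured 6.42 and 6.09 RPKM in control and 5.15 and 4.63 RPKM in *Qk* cKO (log2 fold change −0.34, SE 0.11, FDR 0.305). *Tll1*, a tolloid-like protease that cleaves the BMP antagonist chordin, measured 1.02 and 1.59 RPKM in control and 1.03 and 0.736 RPKM in *Qk* cKO, groups that overlapped (FDR 0.350). Without QkcKO replicate 1 it was called (log2 fold change −0.82, FDR 0.0212 in edgeR's quasi-likelihood test). The most abundant genes of the list, *Fstl1* and the procollagen protease *Bmp1*, differed by 0.00 and −0.04 on the log2 scale.

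Of 20 other ubiquitin ligases, ligase subunits and deubiquitinases that act on Smads or their partners, 13 had a log2 fold change above 0, with a median of 0.07, and 4 had an unadjusted p under 0.05. *Smurf2*, a ligase for Smads and their receptors, measured 17.5 and 19.2 RPKM in control and 20.2 and 21.3 RPKM in *Qk* cKO (log2 fold change 0.19, SE 0.06, FDR 0.286). *Usp9x*, which removes ubiquitin from Smad4, measured 23.2 and 26.2 RPKM in control and 27.5 and 29.99 RPKM in *Qk* cKO (log2 fold change 0.23, SE 0.08, FDR 0.319). It was called without QkcKO replicate 1 (log2 fold change 0.28, FDR 0.0841) and when replicate number entered the fit as a block (FDR 0.0502). The most abundant genes of this list were *Cul1* (98.3, 89.8, 101 and 105 RPKM) and *Usp11* (64.4, 68.6, 64.7 and 64.8 RPKM). With *Rnf165* left aside, 0 of the 20 were called by edgeR's quasi-likelihood test with all libraries and no block.

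Of 28 Smad co-factors and co-repressors, 4 had an unadjusted p under 0.05 and 0 were called by edgeR. *Zfp423*, a zinc-finger partner of BMP Smads, measured 10.2 and 12.3 RPKM in control and 9.52 and 9.11 RPKM in *Qk* cKO (FDR 0.393), and *Zfyve9* (SARA), which presents Smads to receptors, measured 23.9 and 26.9 RPKM in control and 28.5 and 28.9 RPKM in *Qk* cKO (FDR 0.506). The most abundant, *Strap* and *Fkbp1a*, differed by 0.05 and 0.07 on the log2 scale. In the Smad list, 0 of 8 genes were called, and in the TGF-beta and activin arm 0 of 18 were called and 0 had an unadjusted p under 0.05. There the type I receptors *Acvr1b* and *Tgfbr1* were most abundant, with log2 fold changes of −0.03 and 0.09, and *Tgfbr2* and *Ltbp3* had the smallest p (FDR 0.646 and 0.676).

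BMP target genes give a readout of the pathway's transcription. Of 17 targets, 0 were called by edgeR, 1 had an unadjusted p under 0.05, and the 10 with a mean RPKM of at least 1 divided into 5 above and 5 below a log2 fold change of 0, with a median of −0.11. *Id2* measured 71.8 and 61.9 RPKM in control and 65.2 and 73.2 RPKM in *Qk* cKO, groups that overlapped. *Id4*, an inhibitor of proneural factors that radial glia also express, measured 41.4 and 46.5 RPKM in control and 34.6 and 39.7 RPKM in *Qk* cKO, groups that did not overlap (log2 fold change −0.23, SE 0.08, FDR 0.344). *Hey1*, shared with Notch signalling, measured 11.2 and 10.1 RPKM in control and 9.23 and 8.79 RPKM in *Qk* cKO (log2 fold change −0.23, SE 0.11, FDR 0.609). Over the 10 targets the log2 fold changes ran from −0.27 to 0.17, and a shift of the targets as a set was not tested.

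**Figure D5:**
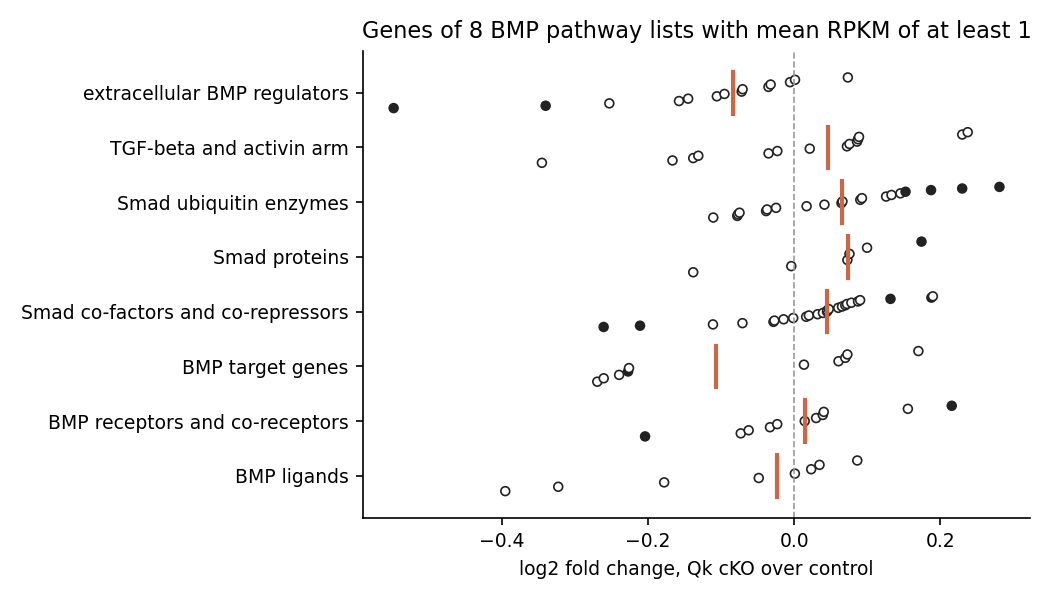
Log2 fold change, *Qk* cKO over control, of every gene with a mean RPKM of at least 1 in the 8 pathway lists, with *Rnf165* left out. Each circle is 1 gene, filled where the unadjusted p was under 0.05, red bars are list medians between −0.11 and 0.07, and none of the genes shown was called.

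In the splicing of the pathway genes, 78 events in 36 genes were tested, and 5 were called by Fisher's exact test, a share of 6.41% beside the background of 7.50%. The edgeR interaction test called 0 of the 78, with 5 at an unadjusted p under 0.05, so that 0 events passed both tests. *Smurf1*, the ligase that controls BMP Smads, has a 78-nt coding exon of 26 codons (chr5:144894080-144894157), shown in capitals with 30 nt on each side because it was the called event with the most direct tie to Smad turnover, a choice made after its values were seen.
Smurf1 alternative exon: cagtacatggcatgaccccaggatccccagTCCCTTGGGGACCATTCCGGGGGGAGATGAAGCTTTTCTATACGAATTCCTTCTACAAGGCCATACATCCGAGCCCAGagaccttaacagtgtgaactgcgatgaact

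Inclusion of the *Smurf1* exon was 0.172 and 0.173 in control and 0.051 and 0.148 in *Qk* cKO, with Δ*I* of 0.074 (Fisher's exact test gave p = 0.00510 and FDR 0.0655). The call rested on QkcKO replicate 1, since without it Δ*I* was 0.025 with an FDR of 0.851 (Fisher's exact test), and leaving out WT replicate 1 or WT replicate 2 also ended the call with FDR 0.287 and 0.125. *Smad2*, the receptor-regulated Smad of the TGF-beta arm, has an alternative exon 3 of 90 nt (chr18:76286860-76286949), whose inclusion was 0.871 and 0.821 in control and 0.759 and 0.795 in *Qk* cKO (Δ*I* of 0.066, for which Fisher's exact test gave p = 0.00910 and FDR 0.0981). The exon lies in the DNA-binding part of Smad2, and both *Qk* cKO libraries were below both controls, but the FDR rose to 0.512 without WT replicate 1 and to 0.407 without QkcKO replicate 1 (Fisher's exact test).

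The other 3 called events had few tags on 1 of their forms. In *Bmp1*, which makes a short and a long protease from one gene, inclusion at an alternative donor between exons 15 and 16 (chr14:70486147-70490200) was 0.235 and 0.169 in control and 0.627 and 0.456 in *Qk* cKO (Δ*I* of −0.323, for which Fisher's exact test gave p = 0.00133 and FDR 0.0653). In the deubiquitinase *Usp4*, a rare acceptor (chr9:108384085-108384515) went from 0.017 and 0.037 to 0.014 and 0.0023 (Fisher's exact test, FDR 0.0319). In *Hey1*, retention of an intron (chr3:8665945-8666355) went from 0.011 and 0.016 to 0.037 and 0.086 (Fisher's exact test, FDR 0.0863). Fisher's test on summed tags covers counting error only, not the spread between embryos.

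The genes whose pattern over the 4 libraries was most like that of *Rnf165* were found by the Euclidean distance of log2 CPM centred on each gene's mean, among 12569 genes with a mean RPKM of at least 1 in both groups. The 5 nearest were *Gm5617*, *Mt3*, *Htra3*, *Pea15a* and *Trpm4*, at distances between 0.0502 and 0.0676. *Mt3*, a brain metallothionein, measured 66.8 and 68.0 RPKM in control and 45.4 and 46.8 RPKM in *Qk* cKO, and *Pea15a*, an astrocyte phosphoprotein, measured 171, 180, 126 and 120 RPKM. The 4 nearest to the same pattern with its sign changed were *Frrs1*, *S100a13*, *Slc35f2* and *Trpc4*, at distances between 0.0269 and 0.121. *Frrs1* measured 1.36 and 1.33 RPKM in control and 1.90 and 1.95 RPKM in *Qk* cKO. These lists follow 4 libraries, in which any gene with a like difference between groups is near.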

How the data were processed

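Poly-A selected cortical mRNA was sequenced as 150-nt read pairs by the authors, who mapped the reads with OLego to mm10 together with known exon junctions and counted tags with Quantas. Tool versions are not given in the sources used here. The kit does not mark strand, so overlapping antisense genes cannot be told apart. The authors deposited, per gene, estimated counts of tags that need not be whole and the RPKM computed from them, and, per splicing event, estimated counts of isoform and junction tags. The methods name 3 replicates where the labels give 2, described as littermates.

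Tags were rounded and compared with edgeR 4.0.16 (R 4.3.3; TMM, quasi-likelihood test, genes that had 1 tag or more in some sample, Benjamini-Hochberg over all genes). Standard errors and 95% intervals came from the F statistic. For events, Fisher's exact test (SciPy 1.17.1) was run on isoform tags summed over replicates, where the smallest row or column sum of junction tags was at least 20, with adjustment within each event type. Alternative settings were DESeq2 1.42.0, edgeR's exact test, limma 3.58.1 on log2(RPKM + 1) or log2(RPKM + 0.1), upper-quartile scaling, filterByExpr, a mean RPKM of at least 1, the edgeR interaction test, junction tags only, coverage of 10 or 50, adjustment over all event types, the mean of replicate inclusion, a replicate block and each sample left out. The fits were tested on simulated data.

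The genes, lists and tests were chosen with earlier results of these data known. All 10 genes are named. Of each pathway list, called genes, the 2 with the highest mean RPKM and the 2 with the smallest p at a mean RPKM of at least 1 are named. Of the 10 genes' events, those with p under 0.05 or Δ*I* of at least 0.1 in size fall under the rule, and the other tested events are described outside it. Called events of pathway genes are named, as are the 5 genes nearest to the pattern of *Rnf165* and to its opposite, of which 1 item is not reported here. Of the lists, Rnf12 is an older name of a listed gene and Hbb-bt was not matched. Positions are counted from 1 on GRCm38, the build of mm10, with GENCODE M21 exons.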

Additional observations from a re-analysis of the deposited data

How the results depend on the processing

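For the 9 genes other than *Rnf165*, 0 were called under each of the 12 alternatives, and 0 of their events under each of the 11 alternatives. Leaving out 1 library leaves a lone sample in its group, which is assumed to vary like the other group, and turned the sign of near-zero log2 fold changes, with *Smad1* between −0.0516 and 0.0388 and *Skil* between −0.0046 and 0.0941. Called pathway genes numbered 0 except under the replicate block, with 1 (*Usp9x*), and between 0 and 2 with 1 library left out, the 2 (*Tll1* and *Usp9x*) being called without QkcKO replicate 1. Called pathway events, 5 in the main test, numbered 1 with junction tags only, which was not among the 5, 2 at a coverage of 50 (*Smurf1* and *Smad2*), 0 with the edgeR interaction test and between 0 and 5 with 1 library left out. Of the 5 called without WT replicate 2, 2 were among the 5 of the main test. The cause was not tested. Over all genes 110 were called, against 57 with edgeR's exact test, 11 with filterByExpr, 0 and 1 with limma at a pseudocount of 1 and 0.1, 7 with limma at a mean RPKM of at least 1, and 0 to 428 with 1 library left out. Over all events 862 were called, against 503 with junction tags only, 64 with the edgeR interaction test and 488 to 722 with 1 library left out.

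The replicate numbers were not shown to pair the libraries. Over 12928 genes with a mean log2 CPM above 1, same-numbered deviations from the group means correlated at 0.30, but their Spearman rank correlation was −0.008. Over the 12442 autosomal genes among them the values were −0.08 and −0.01. With the replicate block 192 genes and 903 events were called in all, 0 of the 9 genes and 0 of their events, and 6 pathway events. With 2 libraries per group, *Smad6* and the events with few tags are limited by depth.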

Other observations

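The letters ACTAAC, the DNA form of the core to which Qki proteins bind, were counted on the RNA strand in the longest protein-coding GENCODE M21 transcript of each of the 10 genes. *Rnf165* held 1 copy in 7300 nt, and 53.1% of coding transcripts of like length, from 0.8 to 1.2 times its own, held at least 1. *Rnf111* and *Ski* held 2 each, a number that 10.5% and 13.0% of transcripts of like length reached. *Smad1*, *Smad5* and *Bmpr1a* held 1, and *Smad4*, *Smad6*, *Smad7* and *Skil* held 0. The count leaves introns out and says nothing of binding.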
